A study of Mus musculus with 12 samples.

Results

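Voltage-gated sodium channels were examined in tongue-innervating sensory neurons of the mouse trigeminal ganglion (TG). The 9 genes described here are the alpha subunits Scn1a, Scn3a, Scn8a, Scn9a, Scn10a and Scn11a and the beta subunits Scn2b, Scn3b and Scn4b. They were chosen by symbol as channel subunits of sensory neurons. All 9 had a count in each of the 12 libraries, and all 9 passed the filter on low counts, out of 22609 genes with a count entry and 13835 that passed.

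Mice were Balb/c athymic nude animals of 6 to 8 weeks, which lack a thymus and therefore mature T cells. The 4 groups of 3 samples were normal males (MN), normal females (FN), males with tongue tumor (MT) and females with tongue tumor (FT). Tumor animals received 350000 HSC3 cells, an established human oral squamous cell carcinoma line, in the tongue. For normal animals the sample labels give no tumor cells, whereas the methods of the study name an injection of OKF6-TERT2 human oral keratinocytes, so which control was given is uncertain. In all groups wheat germ agglutinin coupled to a green dye (WGA-488) was put in the tongue on day 13, and TGs were taken on day 15 for sorting of labelled cells. Each sample pooled 4 TGs, from 2 animals in the normal groups and from 4 animals in the tumor groups, where only the side of the tumor was taken. Number of animals per sample and side of the ganglion therefore changed together with tumor.

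An alpha subunit forms the sodium-selective pore and the voltage sensor, and beta subunits bind to it and alter gating, surface level and adhesion. In sensory ganglia Scn10a (NaV1.8) and Scn11a (NaV1.9) encode the channels that resist tetrodotoxin and are known from nociceptors, the neurons that sense damaging stimuli. Scn9a (NaV1.7) amplifies small depolarizations in nociceptors, Scn8a (NaV1.6) is the main channel of nodes of Ranvier, Scn1a (NaV1.1) is known from myelinated fibers, and Scn3a (NaV1.3) is mainly embryonic and is known to return after nerve injury.

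The alpha subunits differ in the pore at a single codon that sets tetrodotoxin sensitivity, and the codon is shown for 5 of them because it sorts them into the classes used below. Each line gives 30 coding bases of the pore loop of the first domain, 5′ to 3′ on the coding strand, with that codon in capitals, read from the mm9 genome through the GENCODE M1 annotation.
Scn9a: atgactcaggacTACtgggagaacctttat
Scn8a: atgactcaggacTACtgggagaacttatac
Scn3a: atgactcaagacTACtgggagaacctttac
Scn10a: atgacgcaggacTCCtgggaacggctgtac
Scn11a: atgactcaagacTCCtgggagaagctttat
The stretch lies in exon 9 of 27 for Scn9a (chr2:66387043-66387072, minus strand) and Scn3a (chr2:65359855-65359884, minus). It lies in exon 7 of 25 for Scn8a (chr15:100802057-100802086, plus), in exon 8 of 27 for Scn10a (chr9:119575490-119575519, minus) and in exon 9 of 27 for Scn11a (chr9:119714783-119714812, minus). The codon reads tyrosine in Scn9a, Scn8a and Scn3a, and serine in Scn10a and Scn11a. An aromatic residue here is known to let tetrodotoxin bind, and serine is known to prevent it. Against Scn9a the 30 bases differed at 2 places in Scn3a, 3 in Scn8a, 3 in Scn11a and 8 in Scn10a.

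The genes sit in clusters on 2 chromosomes, apart from Scn8a on chromosome 15 (chr15:100785829-100876360). Scn3a, Scn1a and Scn9a lie on chromosome 2 (chr2:65295175-65405684, chr2:66108838-66278897 and chr2:66318137-66473009). Scn10a and Scn11a lie on chromosome 9 (chr9:119517584-119603478 and chr9:119662881-119734574), and so do Scn3b (chr9:40076801-40099203), Scn2b (chr9:44925959-44938153) and Scn4b (chr9:44946520-44962235). Sequence reads were 50 bases long, so near-identical stretches matter for counting. Of all 50-base words in their coding transcripts, 6.41% in Scn3a, 5.33% in Scn1a and 5.14% in Scn9a also occur in another sodium channel gene, against 2.10% in Scn10a, 0.0491% in Scn8a and none in Scn11a, Scn3b and Scn4b. In Scn2b 0.812% of words recur in other genes. Gm13629, on the opposite strand, shares 180 exonic bases with Scn9a, and reads of the 2 cannot be told apart without strand.

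Reads assigned to genes ranged from 4592891 to 8922011 per library. Markers of sensory neurons (10 genes) summed to 11517 to 26113 CPM (read counts scaled to the gene total of each library). Other cell types were present too: 6 satellite glia markers summed to 4095 to 4916 CPM in MN, 3466 to 4828 in MT, 8063 to 16430 in FN and 6523 to 17871 in FT. No list marker was at 0 in any library. The 8 macrophage markers summed to 15.3 to 25.6 CPM in MN, 9.56 to 168 in MT, 103 to 242 in FN and 145 to 295 in FT. FN replicate 2, FT replicate 2 and FT replicate 3 stood apart. In these, 52.6% to 68.4% of reads aligned to several places, against 43.0% to 45.5% in the other 9, and their best Spearman correlation with any of the 9 was 0.811 to 0.908, whereas the lowest among the 9 was 0.971. Results are therefore given with 12 and with 9 libraries. With 9 libraries FT is a single library and is assumed to vary like the other groups. In sorted bulk samples, fewer cells of a type and less RNA per cell cannot be told apart.

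Scn10a and Scn4b were the most abundant of the 9 transcripts per length in MN. On the RPKM scale (CPM per kilobase of exon), its level in MN was 169 ± 11.8 (SD, n = 3), next to 146 ± 23.5 for Scn4b, and the ranges of these overlapped. In the other groups the mean of Scn4b was the higher one, at 146 against 141 RPKM for Scn10a in MT, 111 against 89.3 in FN and 98.8 against 83.6 in FT. The FN and FT means include the 3 libraries that stood apart. Scn4b had 114.8 and 120.8 RPKM in FN replicates 1 and 3, against 109.3 and 121.5 for Scn10a. In FT replicate 1 it had 107 RPKM, against 139 for Scn10a. Scn11a had an RPKM level of 39.1 ± 4.49 and Scn3b of 33.2 ± 2.26. Scn2b at 26.3 ± 2.79 RPKM and Scn9a at 24.0 ± 1.59 RPKM overlapped each other. Scn8a had 15.6 ± 1.84 RPKM and Scn1a 6.99 ± 0.501 RPKM. Scn3a was the lowest of the 9, at 0.195 ± 0.0286 RPKM and 9 to 39 reads per library. The level order of the 9 genes in the 9 libraries was the same but for Scn3b, which at 34.8 ± 6.0 RPKM (SD, n = 9) stood above Scn11a at 30.5 ± 7.31, with overlapping ranges. Over these 9 libraries the ranges of neighbours in the order of the 9 genes overlapped, except for Scn4b above Scn3b, Scn8a above Scn1a and Scn1a above Scn3a. Scn9a also lay above Scn8a within each library, although their ranges overlapped. Family genes known mainly from other tissues were low: in MN Scn4a (skeletal muscle) had 2.35 RPKM and Scn2a1 (brain) 0.560, whereas Scn7a, a sodium-sensing relative, had 20.0.

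**Figure D1:**
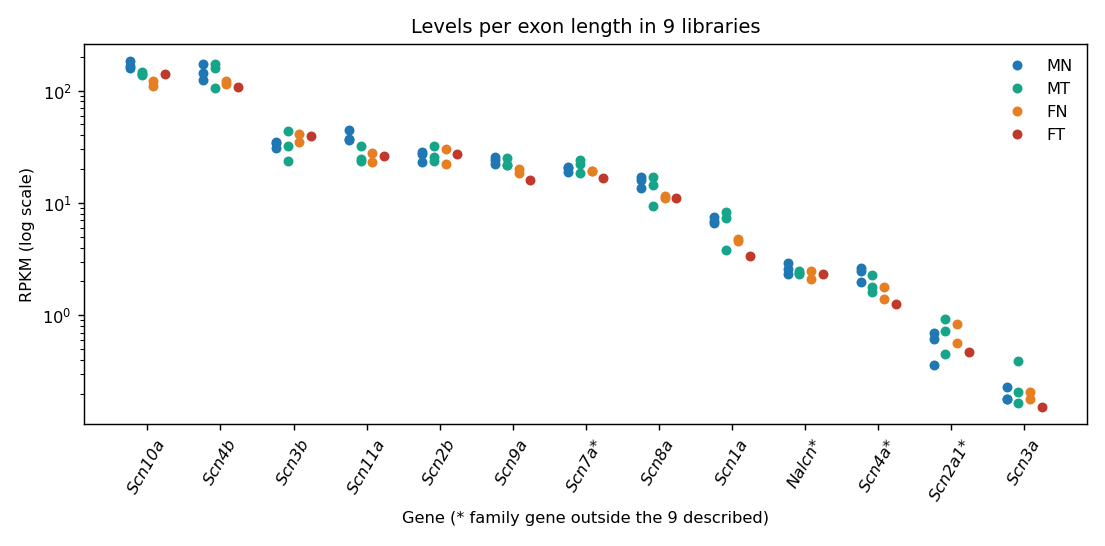
RPKM on a log axis for 13 genes of the sodium channel family (x axis, in order of their mean over 9 libraries; asterisks mark those outside the 9 genes described), 1 point per library, colored by group. Scn10a and Scn4b lie above 100 RPKM in all 9 libraries, and Scn3a lies lowest by mean.

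Tetrodotoxin-resistant channels made up most of the alpha subunit transcripts in the 9 libraries. Scn10a and Scn11a together held 80.5% to 82.7% of the summed RPKM of the 6 alpha subunits in MN and 76.0% to 83.6% in MT. In FN the shares were 78.4%, 56.2% and 81.2% in replicates 1 to 3, and in FT 84.5%, 46.6% and 67.0%. The low shares were those of the 3 libraries that stood apart. In CPM they were 42.3%, 33.1% and 54.0% in FN replicate 2, FT replicate 2 and FT replicate 3. Over 10 alpha genes in RPKM they were 45.0%, 38.2% and 58.7%. The sum itself was 249 to 265 RPKM in MN, 208 to 215 in MT, 169 and 184 in FN replicates 1 and 3, and 196 in FT replicate 1. The MN, MT and FN ranges of this sum did not overlap one another, and FT replicate 1 lay between those of MT and FN. The ratio of Scn10a to Scn9a, both per length, was 6.91 to 7.13 in MN, 5.49 to 6.78 in MT, 5.43 and 6.54 in FN replicates 1 and 3, and 8.69 in FT replicate 1, against 1.51, 1.30 and 2.78 in FN replicate 2, FT replicate 2 and FT replicate 3. Among the 3 beta subunits Scn4b took 58.1% to 78.6% of the summed RPKM over all 12 libraries.

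**Figure D2:**
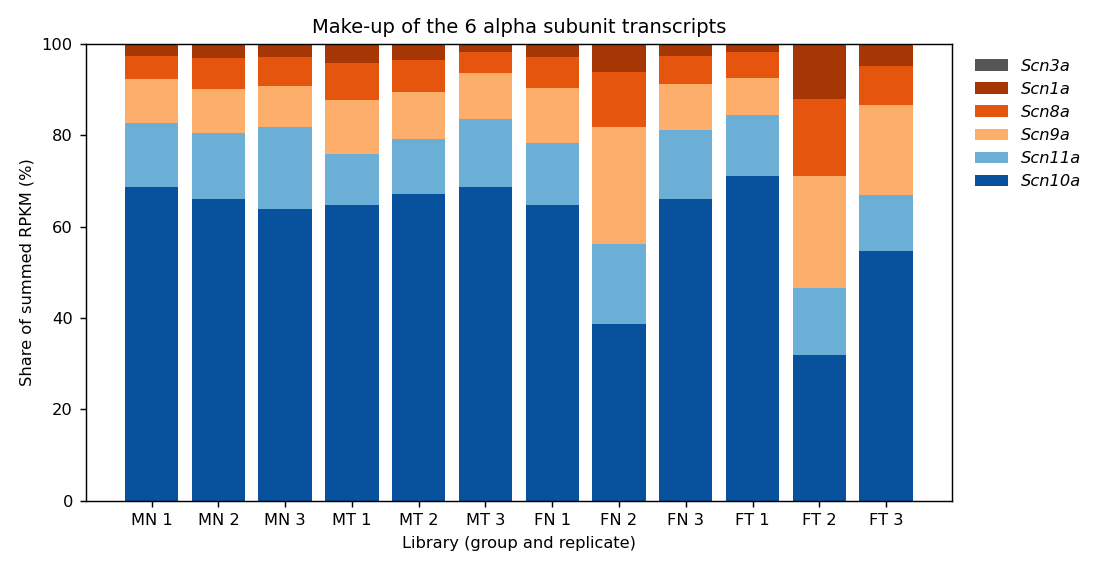
Share of the summed RPKM of 6 alpha subunits (y axis, percent) in each of the 12 libraries (x axis, group and replicate). Scn10a takes 63.98% to 71.07% of the bar in 9 libraries and 38.74%, 31.99% and 54.64% in FN replicate 2, FT replicate 2 and FT replicate 3; Scn3a is too low to be seen.

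Scn10a was lower in normal females than in normal males. Its level was 1163, 1058 and 1017 CPM in MN replicates 1 to 3 and 697, 236 and 774 CPM in FN. All FN libraries lay below all MN libraries, and the lowest was FN replicate 2. In edgeR's quasi-likelihood test on 12 libraries the log2 fold change was -0.90 ± 0.40 (SE), at an unadjusted p of 0.0401 and a Benjamini-Hochberg adjusted p of 0.809. With 9 libraries it was -0.61 ± 0.10, a fold of 0.657, and the adjusted p of edgeR was 0.0320. Over all settings tried the adjusted p for Scn10a ran from 0.00247 to 1.00 and was under 0.05 in 3 of 22, while the log2 fold change ran from -1.14 to -0.59.

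Scn11a was placed alike. Its level was 216, 211 and 259 CPM in MN and 135, 97.3 and 162 CPM in FN, again without overlap. The log2 fold change was -0.72 ± 0.34 with 12 libraries (edgeR adjusted p = 0.809) and -0.67 ± 0.14 with 9 libraries (edgeR adjusted p = 0.0672). Its adjusted p was between 0.00574 and 1.00 over all settings and under 0.05 in 2 of 22, those being the fit of 5 libraries and limma-voom described next.

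For FN versus MN, none of the 9 genes had an adjusted p under 0.05 with 12 libraries, where 0% of 13360 autosomal genes did. At an unadjusted p under 0.05 edgeR called 1 of 9, Scn10a, against 5.57% of genes in either direction and 0.359% that were lower, and the same gene was the 1 of 9 that met the study's criteria (unadjusted p under 0.05, fold over 1.5, RPKM over 5 in either group), against 3.69%. DESeq2 called none of the 9 by adjusted p, where it called 20 of 13360 genes. limma-voom, which weights each library by its quality, called 2, Scn10a (adjusted p = 0.00770) and Scn11a (adjusted p = 0.00628), where it called 5.99% of genes in either direction and 1.03% as lower. With 9 libraries edgeR called 1 by adjusted p (0.391% of genes) and 5 at an unadjusted p under 0.05 (15.2% of genes, 6.57% lower), all 5 lower in FN. A fit of MN with FN replicates 1 and 3 alone, added after the values were seen, called 4 by adjusted p: Scn10a, Scn11a, Scn1a and Scn8a, all lower, against 5.53% of genes in either direction and 1.55% that were lower.

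**Figure D3:**
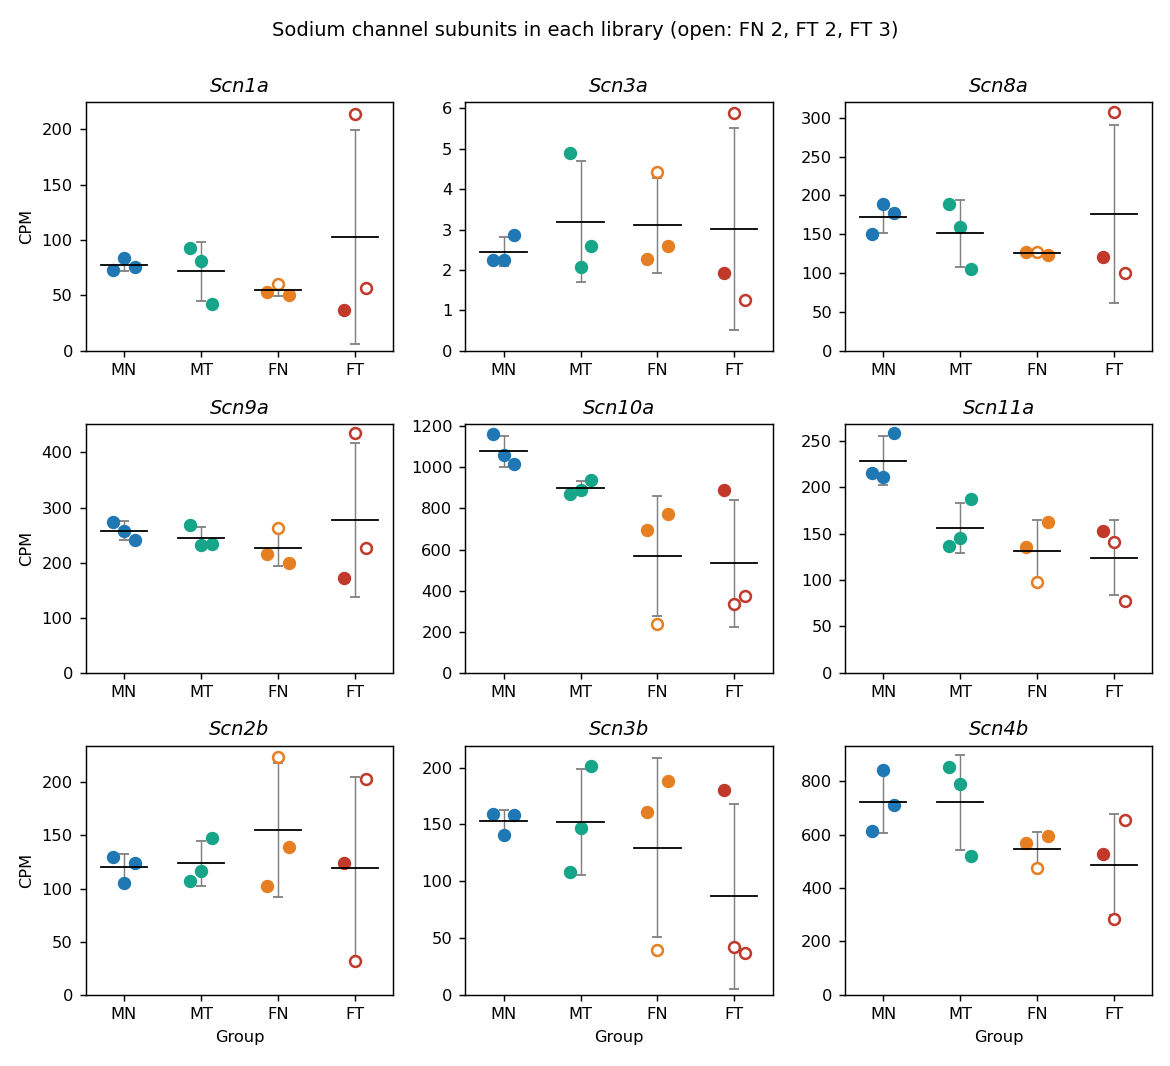
CPM of each of the 9 genes (y axis, from 0, scale differs by panel) in the 4 groups (x axis), with 1 point per library, a line at the group mean and a bar of 1 SD. Open points are FN replicate 2, FT replicate 2 and FT replicate 3. Scn10a and Scn11a of MN lie above all FN and all MT points.

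The other alpha subunits of FN lay near or below those of MN. Scn9a had 275, 258 and 241 CPM in MN and 216, 262 and 199 CPM in FN, so the groups overlapped through FN replicate 2. Its log2 fold change was -0.06 ± 0.43 with 12 libraries and -0.36 ± 0.12 with 9, where edgeR gave an unadjusted p of 0.00890 and an adjusted p of 0.177. Scn8a had 150, 189 and 178 CPM in MN and 127, 127 and 123 CPM in FN, with FN the lower group throughout and FN replicate 2 no exception. Its log2 fold change was -0.34 ± 0.47 with 12 libraries and -0.51 ± 0.22 with 9 (edgeR adjusted p = 0.289). Scn1a had 72.8, 83.6 and 76.0 CPM in MN and 53.3, 60.4 and 50.7 CPM in FN, also without overlap. The log2 fold change of Scn1a was -0.38 ± 0.60 with 12 libraries and -0.63 ± 0.27 with 9 (edgeR adjusted p = 0.294). The adjusted p of these 3 genes over all settings went down to 0.0516 for Scn9a, 0.0220 for Scn8a and 0.00872 for Scn1a, in each case in the fit of 5 libraries, and up to 1.00. Scn3a was too low for a direction: MN had 2.25, 2.24 and 2.87 CPM and FN 2.26, 4.44 and 2.60 CPM.

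Among the beta subunits no difference between FN and MN passed the adjusted test. Scn4b, which binds alpha subunits covalently and is known for its part in resurgent current, had 613, 844 and 712 CPM in MN and 567, 477 and 597 CPM in FN. These groups did not overlap, and the log2 fold change was -0.31 ± 0.34 with 12 libraries and -0.37 ± 0.20 with 9 (edgeR adjusted p = 0.424, and 0.0944 to 1.00 over all settings). Scn2b, the other covalently bound subunit, had 130, 106 and 124 CPM in MN and 102, 224 and 139 CPM in FN. Scn3b, which binds without a covalent link, had 159, 141 and 158 CPM in MN and 161, 39.8 and 188 CPM in FN. For Scn2b and Scn3b FN replicate 2 decided the direction: Scn2b had a log2 fold change of 0.54 ± 0.51 with 12 libraries and -0.04 ± 0.15 with 9, and Scn3b of -0.22 ± 0.54 and 0.14 ± 0.18. In CPM, 5 of the 9 genes did not overlap between FN and MN (Scn1a, Scn8a, Scn10a, Scn11a and Scn4b, all lower in FN), where 19.8% of genes did not overlap and 10.2% did so with FN lower. When CPM were scaled by the TMM factors of edgeR, which correct for composition and were 0.818 in FN replicate 2, Scn10a and Scn11a alone remained without overlap.

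**Figure D4:**
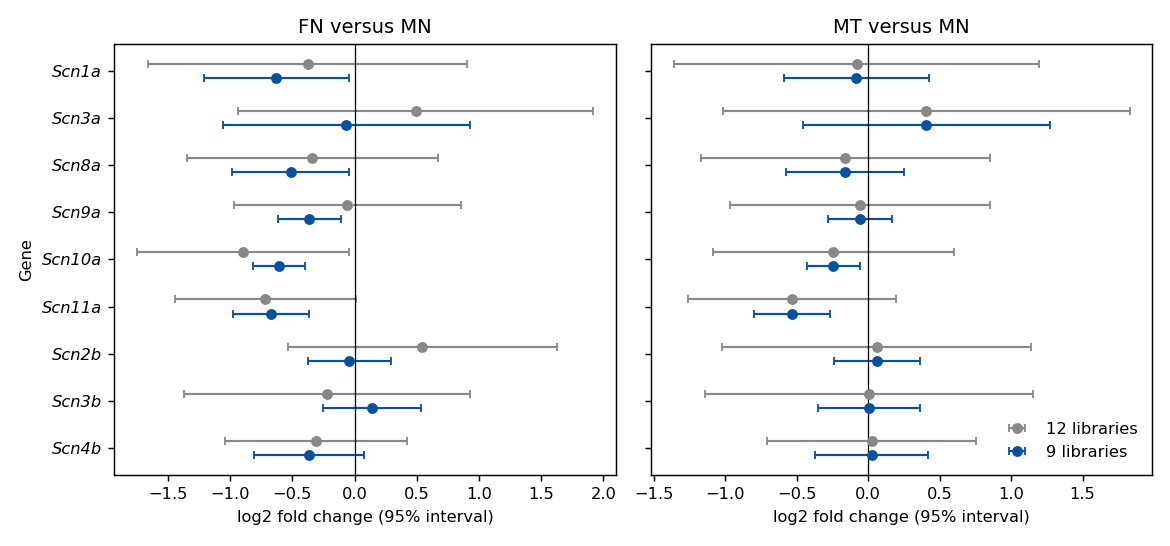
Log2 fold change (x axis) with its 95% interval from edgeR for the 9 genes in FN versus MN and in MT versus MN, from 12 libraries (grey) and from 9 libraries (blue). In 9 libraries the intervals of Scn1a, Scn8a, Scn9a, Scn10a and Scn11a lie below 0 in FN versus MN, and those of Scn10a and Scn11a do so in MT versus MN.

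Tumor in males went with lower Scn10a and Scn11a, at sizes that did not pass the adjusted test in edgeR. Scn10a had 872, 891 and 939 CPM in MT, all below the 3 MN libraries given above. The log2 fold change was -0.24 ± 0.39 with 12 libraries and -0.24 ± 0.08 with 9, where edgeR gave an unadjusted p of 0.0139 and an adjusted p of 0.583 (0.437 to 1.00 over all settings). Scn11a had 137, 145 and 187 CPM in MT, again all below MN. Its log2 fold change was -0.53 ± 0.34 with 12 libraries and -0.53 ± 0.12 with 9 (edgeR unadjusted p = 0.000978, adjusted p = 0.267), and it stayed at -0.53 ± 0.12 when MN and MT were fitted by themselves. limma-voom called Scn11a at an adjusted p of 0.0362, where it called 0.34% of genes (0.108% lower), and over all settings its adjusted p ran from 0.0362 to 1.00 with 1 of 21 under 0.05. Since MN enters both comparisons, the lower values in FN and in MT are not independent of each other.

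The other 7 genes showed no difference between MT and MN that passed a test in edgeR. With 12 libraries none of the 9 was called by edgeR at an adjusted p under 0.05 (0% of 13835 genes) or an unadjusted p under 0.05 (0.426% of genes). By adjusted p DESeq2 called none of the 9, where it called 2 of 13835 genes. The groups did not overlap for 2 of 9, Scn10a and Scn11a, against 13.1% of genes, 7.32% with MT lower. With 9 libraries those 2 were the genes at an unadjusted p under 0.05, against 7.25% (3.26% lower). Scn9a had 268, 232 and 233 CPM in MT. In 9 libraries its log2 fold change was -0.06 ± 0.10, within a 95% interval of -0.28 to 0.17. Scn2b had 108, 116 and 147 CPM in MT and a log2 fold change of 0.06 ± 0.14, with an interval of -0.24 to 0.36. Differences of a size within these intervals remain compatible with the data for Scn9a and Scn2b. With 12 libraries the intervals were wider, at -0.97 to 0.85 for Scn9a and -1.02 to 1.14 for Scn2b.

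MT replicate 3 differed from the other MT libraries in Scn1a, Scn8a, Scn4b and Scn3b. Scn8a had 189, 159 and 105 CPM in MT replicates 1 to 3, and Scn1a had 92.4, 80.7 and 42.0 CPM. Scn4b had 856, 792 and 520 CPM, whereas Scn3b went the other way with 109, 147 and 201 CPM. MT replicate 3 lay outside the MN range for each of these genes, and MT replicate 1 lay outside it on the other side for Scn1a, Scn4b and Scn3b. For Scn2b MT replicate 3 also stood above the MN range and the other MT libraries, at 147 CPM. It lay below the MN range for Scn9a (233 CPM), Scn10a and Scn11a, as MT replicate 2 did. The share of all genes outside the MN range was not computed. The 8 genes listed for myelinated neurons (Nefh, Nefm, Nefl, Ntrk2, Ntrk3, Pvalb, Spp1 and Cntnap2) summed to 7010, 6504 and 4122 CPM in MT, against 5979 to 7062 CPM in MN. Macrophage markers summed to 168 CPM in MT replicate 3 and to 9.56 and 15.8 CPM in MT replicates 1 and 2. The part of either in the channel values was not tested. Scn3a had 4.91, 2.08 and 2.59 CPM in MT.

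In females the effect of tumor could not be separated from FT replicates 2 and 3. Scn10a had 888, 337 and 373 CPM in FT and Scn11a 153, 141 and 77.7 CPM. Scn9a had 172, 436 and 226 CPM, Scn8a 121, 307 and 99.8 CPM, and Scn1a 37.0, 214 and 57.0 CPM. FT replicate 2 was the highest library of all 12 for Scn9a, Scn8a and Scn1a. Scn2b had 124, 31.8 and 203 CPM in FT, Scn3b 180, 42.2 and 37.1 CPM, Scn4b 527, 283 and 655 CPM and Scn3a 1.92, 5.88 and 1.25 CPM. FT and FN overlapped for all 9 genes, and 0 of 9 were without overlap, against 2.49% of genes. With 12 libraries none of the 9 was called in FT versus FN by edgeR (0% of genes by adjusted p, and 3.82% at an unadjusted p under 0.05, where 0 of 9 were), DESeq2 or limma-voom. Scn10a had a log2 fold change of -0.01 ± 0.39 with 12 libraries and 0.28 ± 0.13 with 9. The sign of the fold change differed between 12 and 9 libraries for 7 of the 9. Scn1a, singled out after its values were seen, had a log2 fold change of 1.11 ± 0.61 with 12 libraries and of -0.48 ± 0.37 with 9 (edgeR adjusted p = 0.997, and 0.210 to 1.00 over all settings), where FT replicate 1 is the only FT library.

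In FT versus MT none of the 9 genes was called by edgeR with 12 libraries, by adjusted p (0% of genes) or at an unadjusted p under 0.05 (12.1% of genes). In CPM none was without overlap (17.6% of genes), whereas after scaling by the TMM factors Scn10a lay lower in FT without overlap. DESeq2 and limma-voom called none of the 9 by adjusted p, where DESeq2 called 249 of 13360 genes and limma-voom 0. The sign of the fold change differed between 12 and 9 libraries for 6 of the 9, where FT replicate 1 is the only FT library of the 9. Scn9a, also singled out after its values were seen, had a log2 fold change of 0.43 ± 0.43 with 12 libraries and -0.57 ± 0.15 with 9. Its adjusted p ran from 0.245 to 1.00 over all settings. Scn1a had 0.82 ± 0.60 with 12 libraries and -1.03 ± 0.36 with 9. In FT replicate 1 Scn9a, Scn1a and Scn3a lay below all MT libraries, at 172, 37.0 and 1.92 CPM. With that single FT library, 51.6% of all genes did not overlap between FT and MT, and 21.4% lay lower in FT.

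The difference in tumor effect between the sexes was tested as an interaction. None of the 9 genes had an adjusted p under 0.05 (0% of genes) or an unadjusted p under 0.05 (1.47% of genes) in edgeR with 12 libraries, and DESeq2 and limma-voom called none. Scn10a and Scn11a were singled out after their values were seen. Scn10a, whose log2 difference (females minus males) was 0.23 ± 0.56 with 12 libraries, had 0.52 ± 0.15 with 9, where FT is a single library (adjusted p 0.915 to 1.00 over all settings). Scn11a had 0.56 ± 0.48 and 0.58 ± 0.22 (edgeR adjusted p = 0.942 with 9, and 0.756 to 1.00 over all settings). In those 9 libraries the 2 genes were lower with tumor in males, and FT replicate 1 lay above FN replicates 1 and 3 for Scn10a (888 against 697 and 774 CPM) and between them for Scn11a (153 against 135 and 162 CPM). Of all genes, 68.8% did not overlap between FT replicate 1 and these FN libraries, and 32.1% lay higher in FT replicate 1. The tumor effect averaged over the sexes called none of the 9 at an adjusted p (0% of genes) or an unadjusted p under 0.05 (1.12% of genes) with 12 libraries in edgeR. By adjusted p it called none of the 9 in DESeq2 or limma-voom, which called 1 and 0 of 13835 genes.

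The 3 libraries that stood apart did not share 1 profile of channels. Scn3b was lower than in any of the 9 in each of them, at 0.250, 0.265 and 0.233 of the median of the 9 in FN replicate 2, FT replicate 2 and FT replicate 3. Scn10a was lower in each as well, at 0.264, 0.378 and 0.419 of that median. Scn2b was split, above all 9 in FN replicate 2 (1.81) and FT replicate 3 (1.64) and below all 9 in FT replicate 2 (0.257). In FT replicate 2 the tetrodotoxin-sensitive Scn1a, Scn3a, Scn8a and Scn9a were at 2.94, 2.60, 2.05 and 1.87 of the median, above all 9 libraries. Such departures were common in these libraries, since 26.4% to 30.1% of all genes lay above and 41.2% to 53.1% below all 9. Outside the 9 genes, Scn4a was below all 9 libraries in each, at 0.0523, 0.0175 and 0.179. The myelinated list summed to 10322 CPM in FT replicate 2, the highest of 12, and the 8 nociceptor genes (Trpv1, Calca, Tac1 and P2rx3 among them) summed to 6591 CPM there, the lowest, and to 18739 CPM in FN replicate 2, the highest.

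**Figure D5:**
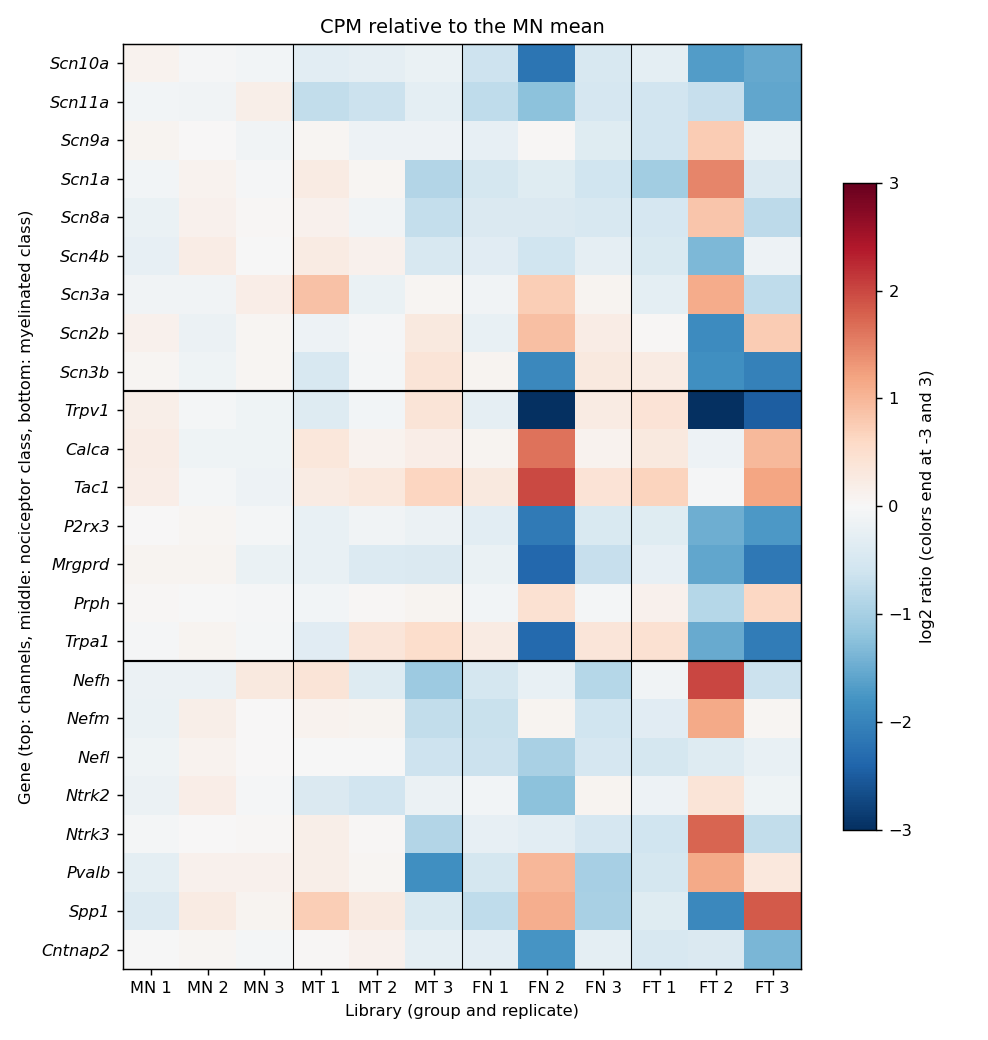
Log2 ratio of CPM (0.5 added) to the MN mean for the 9 channel genes (top), 7 nociceptor genes (middle) and 8 myelinated neuron genes (bottom) in 12 libraries (columns). Among the 9 channel genes the ratios run from -2.19 (Scn10a in FN replicate 2) to 1.46 (Scn1a in FT replicate 2); in the MN columns they stay between -0.24 and 0.22.

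Over the 9 libraries some channels varied together. As a description over 9 libraries, which share group differences and scaling by total counts, Pearson's r of log2 CPM was 0.93 for Scn1a with Scn8a, 0.93 for Scn8a with Scn4b and 0.92 for Scn1a with Scn4b. It was 0.81 for Scn1a with Scn9a, 0.78 for Scn10a with Scn11a and 0.74 for Scn2b with Scn3b, and -0.86 for Scn3b with Scn4b. The median r with the 8 myelinated genes was 0.88 for Scn8a, 0.85 for Scn4b and 0.82 for Scn1a, while it was -0.76 for Scn3b and 0.37 for Scn10a. With 12 libraries this median was 0.51 for Scn8a, -0.19 for Scn4b, 0.55 for Scn1a, -0.35 for Scn3b and -0.21 for Scn10a. With all 12 libraries r was 0.93 for Scn1a with Scn8a, 0.91 for Scn1a with Scn9a and 0.79 for Scn10a with Scn11a. The other pairs changed: r was -0.23 for Scn8a with Scn4b, -0.29 for Scn1a with Scn4b, 0.065 for Scn2b with Scn3b and 0.42 for Scn3b with Scn4b. MT replicate 3 was low in Scn1a, Scn8a and Scn4b and high in Scn3b, as given above.

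The genes with patterns most like a channel were named by the highest r over the 9 libraries among genes over 10 CPM. For Scn10a these were Sh2d5 (0.992), Nmnat2 (0.966) and Tpst1 (0.953), and for Scn11a Senp8 (0.982), Dbndd1 (0.952) and 1810041L15Rik (0.946). For Scn9a they were Pgm2l1 (0.973), Orai2 (0.970) and Rab3c (0.959). For Scn8a they were Tesc (0.982), Clu (0.981) and Adam23 (0.980), for Scn1a Slc24a2 (0.984), Rnf14 (0.976) and Vsnl1 (0.970), and for Scn4b Sh3gl2 (0.983), Cplx1 (0.982) and Lrp11 (0.981). Scn3b was nearest to Pan2 (0.966), Mum1 (0.963) and Tmem2 (0.962), Scn2b to Smg6 (0.940), Scg2 (0.919) and Dync2li1 (0.918), and Scn3a to Pole4 (0.902), C77080 (0.887) and Tspan3 (0.867). With 12 libraries other genes led, for example Nckipsd (0.987) for Scn10a and Repin1 (0.993) for Scn3b. Spread over the 9 libraries, as the coefficient of variation of CPM, was lowest for Scn2b (12.7%) and Scn9a (14.2%) and highest for Scn1a (30.5%) and Scn3a (34.1%), and the median over genes above 10 CPM was 12.8%.

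Proteins that hold, move or modify the channels were read from a list of 26 genes. In FN versus MN with 12 libraries, 0 of 24 tested had an unadjusted p under 0.05 and the median log2 fold change was -0.39, against 0.07 over all genes. With 9 libraries, 0 of 25 tested were higher and 8 were lower at an unadjusted p under 0.05, none by adjusted p, where 8.66% of all genes were higher and 6.57% lower. Their median was -0.27 against 0.00 over all genes. Among the 8 were Ank2 and Nfasc, which anchor channels at the axon, Cntnap2 beside the node, Bace1, which cuts beta subunits, Nedd4l, which marks channels for removal, and Fgf11. Nfasc had a log2 fold change of -0.65 ± 0.16 (edgeR adjusted p = 0.107) and Ank2 of -0.44 ± 0.10 (edgeR adjusted p = 0.0839). With 12 libraries these were -0.69 ± 0.60 and -0.51 ± 0.38, and the adjusted p of edgeR was 0.813 for both. Fgf11 rested on 0 to 10 reads per library. Ank3, the ankyrin of the initial segment, had a log2 fold change of -0.08 ± 0.14.

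Lists of neuron classes and of other cells moved alongside in FN versus MN. With 9 libraries 5 of 8 myelinated genes (Nefh, Nefm, Nefl, Spp1 and Cntnap2) were lower and none was higher at an unadjusted p under 0.05, with a median of -0.66, against the same 6.57% and 8.66% of all genes. Cntnap2 is in this list and among the partners. With 12 libraries none of the 8 was called and their median was -0.25. Of the 8 nociceptor genes Mrgprd and P2rx3 were lower and Tac1 was higher in 9 libraries, with a median of -0.08, and with 12 libraries Tac1 alone was called, higher (5.21% of all genes were). Trpv1, the capsaicin receptor, had 223, 190 and 180 CPM in MN and 163, 11.4 and 235 CPM in FN, with FN replicate 2 far below the rest. Its log2 fold change was -0.55 ± 0.94 with 12 libraries and -0.04 ± 0.20 with 9. With 9 libraries 3 of the 10 sensory neuron markers were lower and 0 higher, with a median of -0.17. Satellite glia markers were higher for 4 of 5 tested, macrophage markers for 7 of 8, endothelial for 5 of 6, fibroblast for 2 of 6 and myelinating Schwann cell for 0 of 6, and none of these was lower, against 8.66% of all genes higher. Their part in the lower channel values of FN was not tested. In MT versus MN with 9 libraries, 1 of 26 partners was higher (Fgf12) and 2 were lower (Pdzd2 among them), against 3.99% and 3.26% of all genes, with a median of -0.01. There the nociceptor list had 1 higher and 1 lower of 8, the myelinated list 0 and 1 of 8, and the macrophage list 2 and 0 of 8.

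Other family genes did not pass the adjusted test in either comparison. Scn4a, the muscle channel, had 13.8, 18.4 and 17.6 CPM in MN and 9.80, 0.652 and 12.5 CPM in FN, with a log2 fold change of -1.13 ± 0.79 with 12 libraries and -0.63 ± 0.23 with 9 (edgeR unadjusted p = 0.0186). Scn7a had log2 fold changes of 0.15 ± 0.42 and -0.10 ± 0.13.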

How the data were processed

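WGA-labelled TG cells were sorted, and libraries were made with the SMART-seq2 protocol and sequenced as single reads of 50 bases. Per the labels and the methods of the study, the authors called bases with CASAVA 1.8.2, aligned reads to mm9 with TopHat2 and counted reads per gene with HTSeq. The deposited values are raw read counts per gene. Aligner and counter versions, the annotation and the strand setting are not given in the sources used here, and reads that overlap antisense genes were not separated. HTSeq's summary lines (76.3% to 88.8% of reads) were left out of totals.

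From the counts, CPM over gene reads were computed, and RPKM with merged exon lengths of GENCODE M1 (mm9), to which 95.7% of symbols matched. Counts were tested with edgeR 4.0.16 (R 4.3.3): filterByExpr (minimum count 10, minimum total 15), TMM, and the quasi-likelihood test with 1 mean per group over 12 libraries. p-values were adjusted by Benjamini-Hochberg over all genes tested, without X and Y genes in FN versus MN and FT versus MT. DESeq2 1.42.0 and limma 3.58.1 (voom with quality weights), other size factors, no filter, only the compared groups, a covariate for reads aligned to several places, a replicate term, 10, 9 and 5 libraries, and leaving out each library were alternatives. The fitting code was tested on simulated data.

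A few genes of these lists and 1 sequence are not reported here. Genes named are the 9 channels, other family genes with counts, the partner, nociceptor, myelinated and cell type lists, and the 3 genes most correlated with each channel (log2 CPM, prior count 2, mean over 10 CPM). The genes, lists and the libraries set apart were chosen with earlier results of these data known. Depth was 4592891 to 8922011 gene reads per library. The labels describe the 3 samples of a group as independent pools, and p-values measure the spread between them.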

Additional observations from a re-analysis of the deposited data

How the results depend on the processing

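Of the 9 channel genes, 0 were called at an adjusted p under 0.05 in FN versus MN and in MT versus MN with 12 libraries. The count for FN versus MN was 1 with 9 libraries, 2 with limma-voom, 4 with 5 libraries (chosen after seeing the data) and 1 at an unadjusted p, where 0.391%, 5.99%, 5.53% and 5.57% of all genes were called, against 0% with 12 libraries. For MT versus MN it was 1 with limma-voom, which called 0.34% of all genes. Scn10a and Scn11a kept their direction under each alternative in both comparisons.

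Other fold changes changed sign, from 12-library values of 0.49 (Scn3a), 0.54 (Scn2b) and -0.22 (Scn3b) in FN versus MN, 1.11 (Scn1a) in FT versus FN, 0.43 (Scn9a) in FT versus MT and 0.00 (Scn3b) in MT versus MN. For FN versus MN, Scn3a had -0.071, -0.067 and -0.067 with 10, 5 and 9 libraries, -0.086 with the covariate and -0.056 with limma-voom. Scn2b had -0.046, -0.041 and -0.042 with 10, 5 and 9 libraries and -0.055 with limma-voom, and Scn3b had 0.14 with each of those and 0.12 with limma-voom. For MT versus MN, Scn3b had -0.0057 with DESeq2 and with RLE size factors, -0.053 with limma-voom and -0.0021 without a filter. For FT versus FN, Scn1a had -0.028 with 10 libraries, -0.48 with 9 and -0.20 with the covariate. For FT versus MT, Scn9a had -0.26, -0.57, -0.56 and -0.070 with 10 libraries, 9 libraries, the covariate and limma-voom. Beyond leaving libraries out, the cause was not tested.

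Leaving out 1 library at a time turned further signs. In FN versus MN the log2 fold change ran from -0.049 to 0.73 for Scn3a and from -0.026 to 0.82 for Scn2b, the lowest without FN replicate 2, from -0.35 (without FN replicate 2) to 0.080 (without FN replicate 3) for Scn9a, and from -0.55 to 0.16 (without FN replicate 2) for Scn3b. In MT versus MN it ran from -0.33 to 0.20 for Scn1a, -0.38 to 0.061 for Scn8a and -0.14 to 0.23 for Scn4b, the highest without MT replicate 3, from -0.056 to 0.13 for Scn2b and -0.22 to 0.18 for Scn3b, the lowest without MT replicate 3, and from -0.077 (without MT replicate 1) to 0.63 for Scn3a. It ran from -0.29 (without FT replicate 2) to 1.55 for Scn1a in FT versus FN, from -0.27 (without FT replicate 2) to 0.74 for Scn9a in FT versus MT, and from -0.19 (without FT replicate 1) to 0.47 for Scn10a in the difference between the sexes.

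The deviations of same-numbered samples had r from -0.36 to 0.57 over 18 pairs, with 5 over 0.1 and the highest for FN with FT replicate 1. With 3 samples per group these values cannot decide whether the numbers pair samples. With the replicate block the count of called channel genes stayed 0 in each comparison. The share of Scn10a and Scn11a in alpha subunit RPKM in MN, 81.7%, was 71.9% in CPM and 74.8% over 10 alpha genes. Scn3a had too few reads for a direction, and 3 samples per group with pooled animals limit all values.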
